A study of Mus musculus with 17 samples.

Results

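The transition from pre-leptotene (PreL) to leptotene/zygotene (LZ) spermatocytes was followed in *Nat10*-SKO mice, using the 3 SKO PreL and the 3 SKO LZ libraries among the 17 libraries of the series. The members were chosen by their labels alone, and 12477 genes whose recovered reads averaged 10 or more across these 6 libraries were tested. SKO mice were of the C57BL/6 strain and carried a floxed and a deleted allele of *Nat10* (Nat10 fl/-) with a *Stra8-GFPCre* knock-in, which excises exons 4 and 5 in germ cells before they enter meiosis. Control (WT) mice of the same strain kept *Nat10*, and their 3 PreL and 2 LZ libraries serve as a comparison that shares no sample with the SKO transition. The cells were sorted by FACS after staining of DNA with Hoechst and of dead cells with propidium iodide. Their polyadenylated RNA was amplified by Smart-seq2 with ERCC spike-in RNA added. The ages of the mice, and whether replicates came from separate animals, are not given in the sources used here, so p-values measure only the spread between these libraries, which may be technical.

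Spermatogonia that commit to meiosis replicate their DNA once more as pre-leptotene cells and switch on the genes of the meiotic chromosome axis. In leptotene, SPO11 cuts the DNA and cohesin-based axes form, and in zygotene the homologous chromosomes begin to be zipped together by the synaptonemal complex while DMC1 and its partners repair the breaks. NAT10 is the acetyltransferase that makes N4-acetylcytidine in RNA, and it also takes part in the maturation of ribosomal RNA. The mouse genome further holds very many copies of B1 and B2, short interspersed repeats copied by RNA polymerase III, and many of these copies lie in the 3′ UTRs of protein-coding genes.

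Many of the most abundant genes that rose in SKO LZ shared stretches of sequence, so these are shown first. All 20-letter words were ranked by the number of tested genes whose annotated transcripts hold them on either strand, without use of expression, and the 3 most shared were kept, leaving out words of low complexity and words that share a run of 10 letters with one already kept. They were chosen after the data had been seen. No repeat annotation was used, and the families are named from general knowledge of the B1 and B2 consensus. The capitals mark the word.
B1 word: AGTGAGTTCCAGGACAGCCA
B2 word: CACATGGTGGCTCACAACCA
second B2 word: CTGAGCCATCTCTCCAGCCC
The B1 word stood in transcripts of 1142 tested genes, the B2 word in those of 743 and the second B2 word in those of 452. The reverse complements, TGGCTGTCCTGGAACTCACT, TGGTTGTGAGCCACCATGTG and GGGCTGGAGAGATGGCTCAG, were counted with them. Windows of 30 bases in the 3′ UTRs of 6 risen genes show how the words sit in them, in the GRCm38 (mm10) build and on the strand of the gene.
*Nip7*, chr8:107059676-107059705, plus strand: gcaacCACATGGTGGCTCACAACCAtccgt
*Slc7a14*, chr3:31206314-31206343, minus strand: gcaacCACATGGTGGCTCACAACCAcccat
*Slfn5*, chr11:82963848-82963877, plus strand: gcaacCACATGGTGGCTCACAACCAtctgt
*Dclre1c*, chr2:3461603-3461632, plus strand: aaccaCTGAGCCATCTCTCCAGCCCagggt
*Rpl7l1*, chr17:46774843-46774872, minus strand: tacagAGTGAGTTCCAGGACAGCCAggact
*Rfxank*, chr8:70132270-70132299, minus strand: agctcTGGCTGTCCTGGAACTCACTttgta
The first 3 windows hold the same word after the same 5 bases and differ only in what follows it, and the last holds the B1 word as its reverse complement.

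The SKO PreL libraries held 11228805 to 11268541 recovered reads and the SKO LZ libraries 5812380 to 7609420, and the 100 most abundant genes of each library took 17.1% to 19.0% and 29.97% to 37.5% of them. On principal components of the 6 libraries, the first (65.2% of the variance) separated the sorts, and the second (19.9%) set SKO PreL replicate 3 (-48.4) apart from replicates 1 and 2 (30.1 and 36.8). Summed CPM (reads scaled to a common library total) of 11 Sertoli cell markers were 853, 1047 and 77 in the 3 SKO PreL libraries and 549, 723 and 554 in SKO LZ. Those of 9 Leydig cell markers were 282, 469 and 41, then 84, 237 and 237. The low values were those of SKO PreL replicate 3, and counts of rises and falls in the gene groups below are therefore given with and without that library where it changed them. The reads of replicates differed by more than counting error in all pairs (chi-square over its degrees of freedom, 6.3 to 33.2).

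*Nat10* reads numbered 168, 160 and 114 in SKO PreL and 45, 52 and 61 in SKO LZ. Rescaled over all 17 libraries, its level was 277 ± 42.9 in SKO PreL and 228 ± 38.4 in SKO LZ (SD, n = 3). The WT PreL level was 705 ± 146 (SD, n = 3), and the WT LZ libraries gave 546 and 724. Each SKO library lay below each WT library of its stage. Within SKO the level did not pass the test between the sorts (log2 fold change -0.31, SE 0.22, limma adjusted p = 0.305). The reads are those of the whole gene, on chr2:103721256-103761270, and include exons that are not excised, and its transcript holds the B1 word.

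Genes that mark the sorts were checked next. Values given from here on are ERCC-calibrated reads divided by the size factors of the 6 SKO libraries, called rescaled values, and fold changes are on the scale of log2(rescaled value + 10). *Stra8*, the retinoic acid-induced gatekeeper of meiotic entry, stood at 11957, 10513 and 17318 in SKO PreL and at 5821, 5917 and 5980 in SKO LZ. It fell (log2 fold change -1.13, SE 0.18, adjusted p = 0.00138), though without SKO PreL replicate 3 its change of -0.93 missed the fold threshold, and on values not rescaled it was -0.28. *Sycp3*, of the lateral element of the synaptonemal complex, stood at 111419, 81012 and 139202 in PreL and at 71009, 101989 and 108141 in LZ, and the groups overlapped (-0.23, adjusted p = 0.511). It did not pass the test in WT either (0.36, adjusted p = 0.262), nor did the difference of -0.69 (adjusted p = 0.0661). *Spo11* stood at 541, 427 and 1151 in PreL and at 804, 676 and 722 in LZ, again with overlap (0.18, adjusted p = 0.689). In WT, *Spo11* rose by 3.40 between the same sorts, and the changes of the genotypes differed by -3.32 (adjusted p = 0.0213). Neither *Sycp3*, whose exons overlap those of *Chpt1*, nor *Spo11* thus passed the test as higher in SKO LZ, and LZ is used below as the name of the sort.

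Between the sorts, 1319 of the 12477 tested genes rose (10.6%) and 865 fell (6.93%) by limma at an adjusted p under 0.05 and a log2 fold change beyond 1. The fold change passed 4-fold for 455 risen and 137 fallen genes, and 8-fold for 58 and 15. Of the 2034 genes averaging 1000 reads or more, 272 rose and 126 fell. All LZ libraries lay above all PreL libraries for 25.2% of the tested genes and below them for 27.7%. The median log2 fold change over the tested genes was -0.01 after rescaling and 0.81 on the ERCC-calibrated values as deposited, on which 4409 genes rose and 152 fell. All 1319 risen genes were among those 4409, whereas 152 of the 865 fallen genes kept their call. Directions below are relative to the rescaled median. In bulk RNA of sorted cells, fewer cells of a type and less RNA per cell cannot be told apart. The sum of the ERCC-calibrated values was 24592376.8 ± 2897567 in SKO PreL and 59005477.6 ± 2156003 in SKO LZ (SD, n = 3), a ratio of 2.40 (two-sided exact permutation test, p = 0.1, the smallest that 3 against 3 allow). Without the genes that hold a shared word the ratio was 1.93.

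B1 and B2 words were more common among risen genes than among all tested genes, and for B2 words the gap was wider among abundant genes. A word of either family stood in the transcripts of 32.5% of 1285 risen genes with an annotated transcript, 12.95% of 857 fallen genes and 15.5% of all 12325 tested. The mean that defines abundant genes includes the LZ libraries, so a rise itself helps a gene into that set. The part of this choice in the wider gap was not tested. Among genes averaging 1000 reads or more, 61.1% of the 265 risen genes held a word, and 52.5% held a B2 word. For all 2018 such genes the shares were 25.02% and 16.0%, and for the 125 fallen ones 14.4% and 5.6%. Among genes that rose more than 4-fold the share was 49.1%, against 7.46% among those that fell as much. Longer transcripts hold more words, so the genes were also split into 3 equal groups by transcript length. In the shortest group 23.8% of risen genes and 7.37% of tested genes held a word, in the middle group 31.3% and 16.8%, and in the longest group 42.5% and 22.4%. No test was run on these shares, since the words were chosen with the data known.

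Read by family, 231 of the 992 tested genes with a B2 word rose and 53 fell (23.3% and 5.34%), and 187 of 922 with the B1 word alone rose and 58 fell. Of the 10411 genes with neither, 867 rose and 746 fell (8.33% and 7.17%). Leaving all genes with a word out, and keeping those with no annotated transcript, 901 genes rose and 754 fell. Abundant genes with a B2 word were spread widely. Of the 323 averaging 1000 reads or more 139 rose and 7 fell, with a median of 0.40 and quartiles of -0.24 and 1.97, while the 182 with the B1 word alone held 23 rises and 11 falls with a median of -0.069, and the 1513 with neither word had a median of -0.18. In WT the same 323 genes had a median of -0.90. The second B2 word and the B1 word stood in both orientations. The B2 word was read as written in 117 and as its reverse complement in 71 risen genes, against 379 and 386 of all tested genes.

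**Figure D1:**
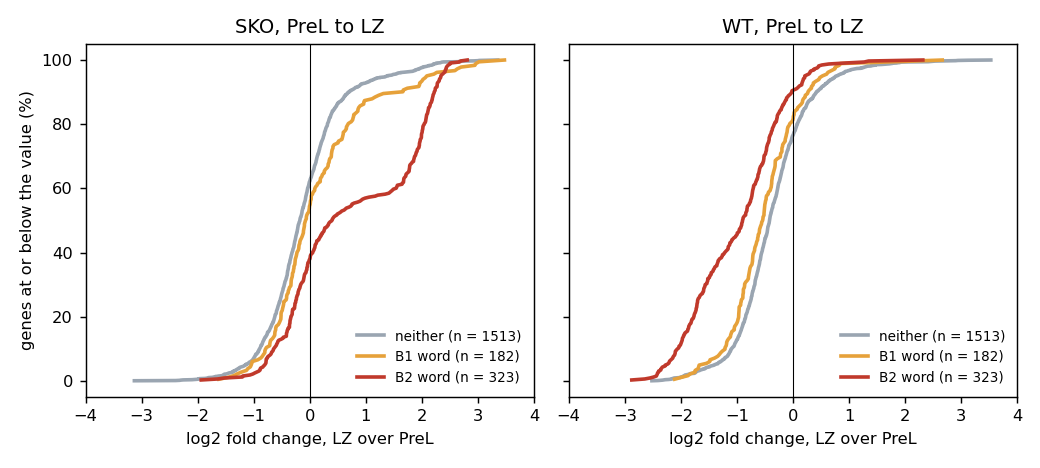
Cumulative share of genes (%) against the log2 fold change from PreL to LZ in SKO (left) and WT (right), for abundant genes averaging 1000 reads or more over the 6 SKO libraries. The curve of the 323 genes with a B2 word has a second rise near a log2 fold change of 2 in SKO and lies to the left of the other curves in WT.

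The position of the word also differed. Each gene was counted once, under a 3′ UTR if any of its transcripts held the word there. Coding sequence, 5′ UTR and transcripts with no coding sequence came next, in that order. Of the 231 risen genes with a B2 word, 159 (68.8%) held it in an annotated 3′ UTR, against 353 of all 992 (35.6%) and 15 of the 53 that fell. It stood only in transcripts with no coding sequence in 70 of the risen genes and in 616 of the 992. Of the 240 risen genes with the B1 word, 175 (72.9%) held it in a 3′ UTR, against 523 of 1143 tested (45.8%). The gene table does not say where in a gene the reads lay, so whether they came from the repeats themselves was not tested.

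Summed over libraries, the genes with a B2 word took a share of the reads that stood apart in SKO LZ. The share was 15.5%, 15.0% and 16.0% in SKO PreL and 34.2%, 27.5% and 30.2% in SKO LZ, which is 15.5% ± 0.505 and 30.6% ± 3.37 (SD, n = 3). In WT it was 15.2%, 17.3% and 17.7% in PreL and 10.5% and 10.6% in LZ. All SKO LZ libraries lay above every other library of the series, and both WT LZ libraries lay below all others. The share of genes with the B1 word alone was 7.0% to 7.6% in all 17 libraries.

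**Figure D2:**
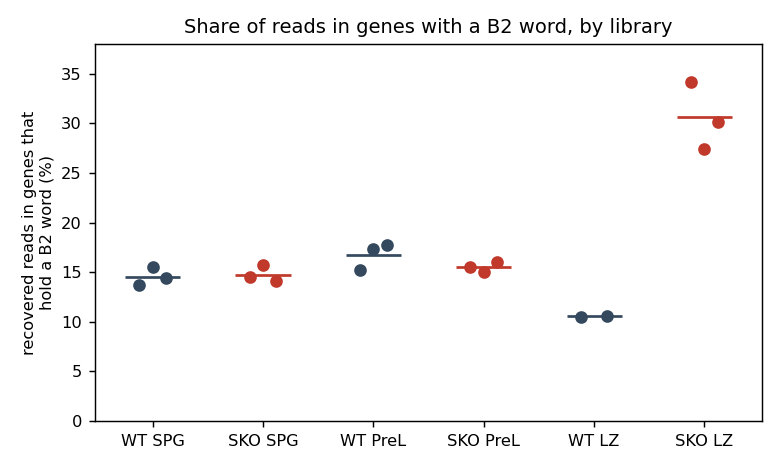
Share of recovered reads (%) in genes whose transcripts hold a B2 word, with 1 point per library and the group mean as a line. The 3 SKO LZ libraries sit between 27.5% and 34.2%, above all others, and the WT LZ libraries near 10.5%.

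The most abundant risen genes were chosen after their values were seen. Of the 30 with the highest level in SKO LZ, 20 held a B2 word and 1 the B1 word, 28 fell in WT and 0 rose there. Their log2 fold changes in SKO ran from 1.79 to 2.93 with a median of 2.07, and their median in WT was -1.77. *Nip7*, whose protein acts in ribosome assembly, stood at 141113, 124624 and 176933 in SKO PreL and at 837749, 528131 and 645929 in SKO LZ. It rose 4.51-fold (log2 2.17, SE 0.28, adjusted p = 0.000485) and fell in WT by 1.59 on the log2 scale. *Slc7a14*, a solute carrier best known from neural tissue, rose by 2.24 and changed by -2.14 in WT. *Tyr*, the tyrosinase of pigment cells, rose from 54507, 43916 and 61940 to 281082, 172678 and 220681, a change of 2.06, against -2.01 in WT. *Cxcr2*, a chemokine receptor of neutrophils, changed by 1.99 and -1.86. *Dclre1c*, which encodes the nuclease Artemis and whose exons overlap those of *Suv39h2*, changed by 2.29 and -2.0, and *Slfn5*, a Schlafen family member that overlaps *Slfn5os*, by 2.37 and -1.81. Genes known from pigment cells, neurons and neutrophils thus stood among the most abundant risen genes, and each of those named here rose in SKO and fell in WT.

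The 10 risen genes with the largest fold changes (averaging 100 reads or more, with no overlap between the sorts) were *Itgb1bp3*, *2310010M20Rik*, *Lix1*, *Ddx11*, *Gm4951*, *Rfxank*, *Slc28a3*, *Dnase2a*, *Syt15* and *Ptk6*. Their log2 fold changes ran from 3.42 to 3.75, and 5 of them held the B1 word (*Itgb1bp3*, *2310010M20Rik*, *Lix1*, *Rfxank* and *Dnase2a*). *Lix1* stood at 417, 576 and 487 in PreL and at 9012, 5216 and 5009 in LZ, and rose 12.4-fold (log2 3.63, SE 0.23, adjusted p = 3.14e-05). *Ddx11*, a DNA helicase of sister chromatid cohesion, stood at 700, 796 and 619 and then at 11350, 7143 and 7560, and rose 12-fold (log2 3.58, SE 0.19). *Rfxank*, a subunit of the activator of MHC class II genes whose exons overlap those of *Nr2c2ap*, rose from 1142, 1312 and 1287 to 20086, 12065 and 11131 (log2 3.47). No value of either sort overlapped in these genes, as the choice required. *Bc1*, the neuronal BC1 RNA made by RNA polymerase III, also rose (named after its value was seen). It stood at 4958, 5780 and 4544 in PreL and at 53318, 34541 and 37887 in LZ, a log2 fold change of 3.02 (SE 0.18), while it fell in WT by 1.25 on the log2 scale.

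The 10 fallen genes chosen the same way were *Nkg7*, *Gsk3b*, *Cd3g*, *Stub1*, *Ddb2*, *Srgn*, *AW112010*, *Nckap1*, *Rpph1* and *Trim23*, with log2 fold changes from -3.43 to -2.46, and none of them held a word. *Gsk3b*, a kinase of glycogen metabolism and Wnt signalling, stood at 14045, 11673 and 25344 in PreL and at 1900, 1733 and 1860 in LZ (log2 -3.13, SE 0.25, adjusted p = 5.63e-05). Its PreL values were spread widely, with replicate 3 the highest, and its LZ values lay close together. *Nkg7*, a granule protein gene of natural killer and T cells, stood at 765, 670 and 848 in PreL and at 32.5, 83.8 and 80.9 in LZ (log2 -3.43, SE 0.35). *Cd3g*, a chain of the T cell receptor complex, fell by 2.97 on the log2 scale, and *Srgn*, a proteoglycan of blood cells, by 2.79. *Stub1*, a chaperone-bound ubiquitin ligase whose exons overlap those of *Jmjd8*, fell by 2.91. *Ddb2*, a sensor of ultraviolet DNA damage that overlaps *Acp2*, fell by 2.83. *Rpph1*, the RNA of ribonuclease P made by RNA polymerase III, overlaps *Ccnb1ip1* and fell by 2.50. *Nkg7* and *Cd3g* are thus genes of T and natural killer cells, for which no marker list was used.

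**Figure D3:**
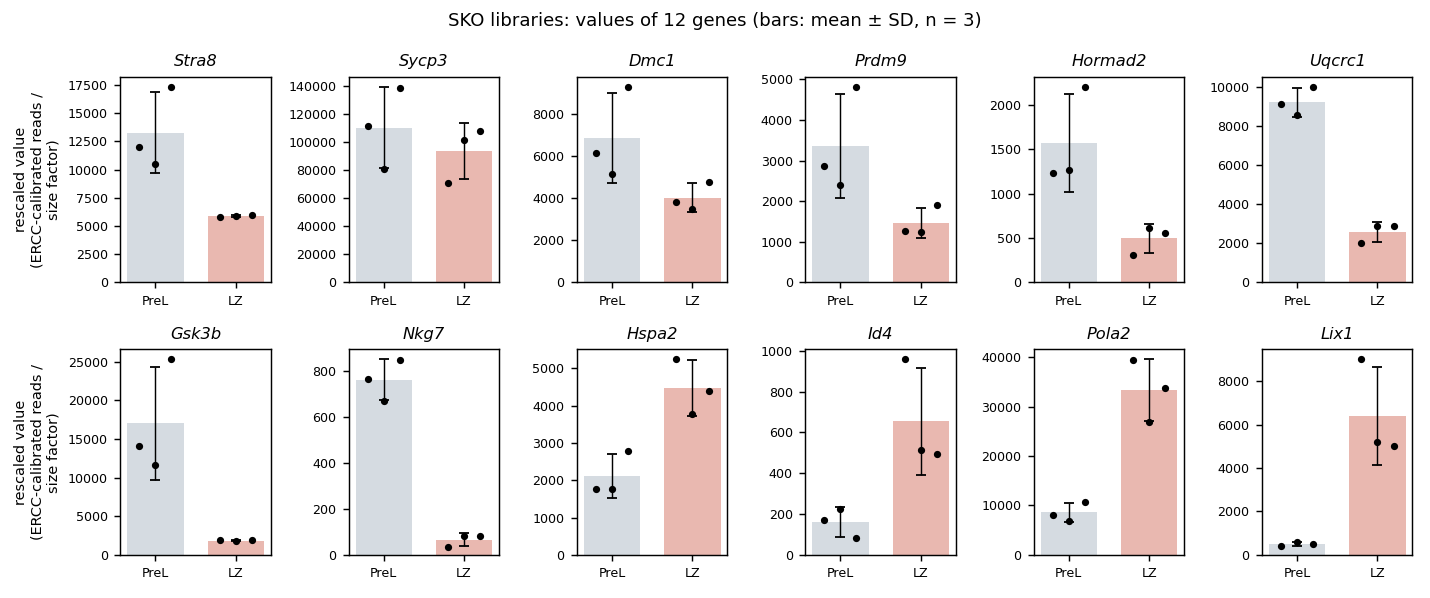
Rescaled values (ERCC-calibrated reads divided by the size factor) of 12 genes in the SKO libraries, with points for libraries and bars for the mean ± SD (n = 3). In 11 of the 12 panels all PreL and all LZ points are separated, and for *Sycp3* they overlap.

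Genes of meiotic chromosomes did not rise in SKO. In lists chosen with earlier results of these data known, 47 such genes were tested, of which 0 rose and 15 fell, where 10.6% and 6.93% of all tested genes did, and their median was -0.75 with 43 below 0. In WT 6 of the 47 rose and 6 fell with a median of 0.12, and the change was more negative in SKO than in WT for 23 genes and more positive for 4, where 23.1% and 15.1% of all 13530 genes tested for this difference were. Without SKO PreL replicate 3 the falls numbered 6. On values not rescaled 3 genes rose and 2 fell, so that these falls are falls relative to other genes of the same libraries.

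Of the 11 genes of the synaptonemal complex and of HORMA domain proteins, *Syce1*, *Syce2* and *Hormad2* fell and 0 rose (median -0.38). *Hormad2*, which marks unsynapsed axes, stood at 1235, 1265 and 2203 in PreL and at 309, 618 and 560 in LZ (log2 -1.65, SE 0.31, adjusted p = 0.00349). *Syce1* and *Syce2*, of the central element, changed by -1.18 (SE 0.22) and -1.21 (SE 0.23). *Syce2* changed alike in WT (-1.20), and the difference of -0.12 did not pass the test (adjusted p = 0.823). *Hormad2* and *Syce1* changed by 0.39 and 0.56 in WT, with differences of -2.13 (adjusted p = 0.000567) and -1.85 (adjusted p = 0.000104). *Sycp1*, of the transverse filament, was at -0.05 and *Hormad1* at -0.38, and neither passed the test. Without SKO PreL replicate 3, 1 gene of the list fell, and on values not rescaled 1 rose and 0 fell.

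Of the 10 genes of meiotic cohesin and of telomere attachment, 6 fell (median -1.05). *Majin*, listed as *1700123I01Rik*, anchors telomeres to the nuclear membrane. It stood at 1193, 796 and 1609 in PreL and at 195, 309 and 380 in LZ (log2 -1.98, SE 0.31, adjusted p = 0.00149), while in WT it changed by 0.04 (difference -2.11, adjusted p = 0.00227). Its partners *Terb1* (*Ccdc79*) and *Terb2* (*4933406J08Rik*) fell by 1.28 and 1.08 on the log2 scale, and *Ccdc155*, the KASH5 linker to dynein, by 1.03. *Ccdc155* rose by 2.06 in WT, and its difference of -3.17 passed the test (adjusted p = 0.000804). The cohesin subunit *Smc1b* stood at 43754, 31410 and 52398 and then at 15386, 16684 and 20477 (log2 -1.26, SE 0.20), and *Rad21l* changed by -1.43. *Rec8* (-0.90) and *Stag3* (-0.55) missed the thresholds. All 10 genes had values below 0. Without SKO PreL replicate 3 the list held 3 falls, and on values not rescaled 1.

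Of the 8 genes of double-strand break formation, 5 fell (median -1.13). *Gm960*, the TOPOVIBL partner of SPO11, stood at 649, 490 and 984 in PreL and at 106, 189 and 268 in LZ (log2 -1.89, SE 0.37, adjusted p = 0.00428), and it changed by 0.65 in WT (difference -2.62, adjusted p = 0.00279). *Prdm9*, which places the breaks, stood at 2876, 2399 and 4812 and then at 1275, 1241 and 1898 (log2 -1.15, SE 0.26). In WT *Prdm9* changed by -0.73, and the difference of -0.53 did not pass the test (adjusted p = 0.252). The change was more negative in SKO for 3 genes of the list and more positive for 1. *Zcwpw1* (overlapping *Pilra*), *Ccdc36* (IHO1) and *Mei1* fell by 1.22, 1.14 and 1.11 on the log2 scale, all with no overlap between the sorts. Without SKO PreL replicate 3, 2 fell, and on values not rescaled 2 rose and 1 fell.

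Of the 18 recombination and crossover genes, *Hsf2bp* alone fell (-1.18, SE 0.21; its exons overlap those of *Rrp1b*), yet 17 had values below 0 and the median was -0.70. *Dmc1* stood at 6163, 5165 and 9307 in PreL and at 3808, 3477 and 4797 in LZ (-0.74, adjusted p = 0.0263), short of the fold threshold, and *Tex11*, on the X chromosome, was at -0.82. In WT *Dmc1* and *Tex11* changed by -0.62 and -1.01, and neither difference passed the test (adjusted p = 0.543 and 0.823). *Meiob*, listed as *4930528F23Rik*, which binds single-stranded DNA, was at -0.12 in SKO and rose by 1.51 in WT (difference -1.74, adjusted p = 0.0452). The change was more negative in SKO for 10 of these genes and more positive for 2. The call of *Hsf2bp* was lost without SKO PreL replicate 3 (-0.96) and on values not rescaled (-0.33), which left 0 falls in the list, and on the latter the list's median was 0.14.

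**Figure D4:**
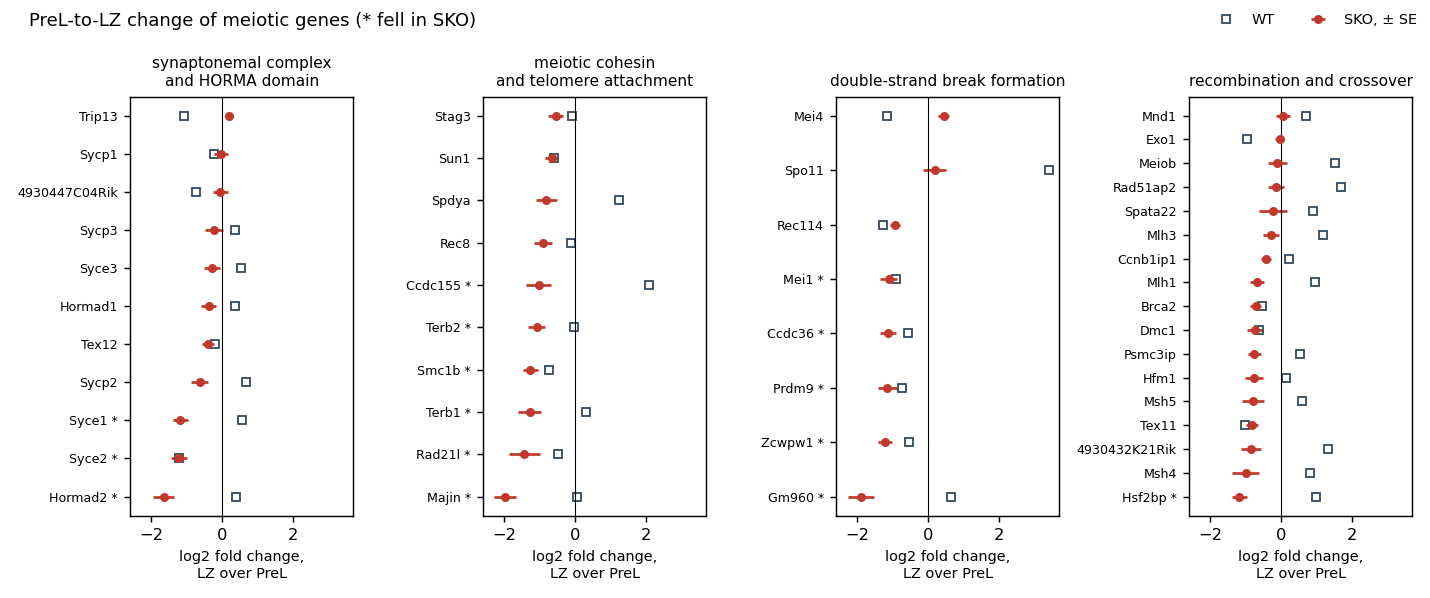
Log2 fold change from PreL to LZ of 46 of the 47 meiotic genes in 4 lists, with SKO as filled points ± SE and WT as open squares. Asterisks mark the 15 genes that fell in SKO, and Spo11 has the widest gap to its WT value in its list.

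Of 38 DNA replication genes tested, 8 fell and 1 rose in SKO (median -0.47), and in WT 19 fell and 0 rose (median -0.996). Falls took 21.1% of the list in SKO and rises 2.63%, beside 6.93% and 10.6% of all tested genes. Of all genes tested in WT, 7.8% fell and 18.8% rose. Of the 8 that fell, 5 held a shared word, and without SKO PreL replicate 3, 6 fell. The change was more positive in SKO for 14 and more negative for 3, where 15.1% and 23.1% of all genes were. *Mcm2*, of the replicative helicase, stood at 4477, 5073 and 4215 in PreL and at 5326, 5745 and 6409 in LZ (0.34, adjusted p = 0.056), while it changed by -1.23 in WT (difference 1.47, adjusted p = 4.98e-05). *Pcna*, the sliding clamp, was at -0.09 in SKO (difference 0.78, adjusted p = 0.00618). *Gins2* fell furthest, from 2003, 1799 and 2170 to 260, 456 and 454 (log2 -2.36, SE 0.23, adjusted p = 0.000125; its exons overlap those of *Gse1*). *Pola2*, a subunit of DNA polymerase alpha that holds a B2 word, was the only member that rose, from 8024, 6920 and 10755 to 39345, 26885 and 33743 (log2 1.97, SE 0.20). It changed by -1.07 in WT. On values not rescaled 5 genes of the list rose and 1 fell. Of 16 tested replication-dependent histone genes 4 fell and 0 rose (3 fell without SKO PreL replicate 3), a share of 25% beside 6.93% of all tested genes. Histone mRNAs without a poly(A) tail are captured poorly by oligo(dT).

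Of 24 genes of mitosis and G2/M tested, 5 rose and 1 fell (median 0.54), shares of 20.8% and 4.17% beside 10.6% and 6.93% of all tested genes. Without SKO PreL replicate 3, 7 rose. *Cdk1* stood at 2400, 2674 and 3344 in PreL and at 5602, 6289 and 6222 in LZ (log2 1.11, SE 0.14, adjusted p = 0.000493). *Plk1* and *Aurkb*, kinases of the G2/M passage and of the spindle, rose by 1.28 and 1.48. *Cenpf* and *Prc1* rose by 1.68 and 1.86, and both hold a B2 word. *Kif20a*, a kinesin of cytokinesis whose exons overlap those of *Cdc23* (itself at -1.72), fell by 1.75 on the log2 scale and rose by 1.44 in WT (difference -3.27, adjusted p = 7.14e-06). In WT, 6 of the 24 rose and 1 fell, where 18.8% and 7.8% of all genes tested in WT did. Differences were positive for 9 and negative for 5, where 15.1% and 23.1% of all genes had them. Not rescaled, 14 rose and 0 fell.

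Of 12 genes of undifferentiated spermatogonia tested, of 15 listed, *Id4*, *Lin28a*, *Nanos3* and *Zbtb16* rose and 0 fell (median 1.11, and 0.48 without SKO PreL replicate 3, with the count of rises then again 4). Rises took 33.3% of the 12, beside 10.6% of all tested genes. *Id4*, a marker of spermatogonial stem cells, stood at 173, 225 and 83.8 in PreL and at 958, 513 and 492 in LZ (log2 1.99, SE 0.39, adjusted p = 0.00453; its exons overlap those of *A330033J07Rik*). *Lin28a* stood at 176, 196 and 122.5 and then at 536, 524 and 442 (log2 1.57, SE 0.25). Their reads per library were few, 26 to 118 for *Id4*. *Id4* also rose in WT (1.87). The difference was positive for 1 gene of the list and negative for 0, where it was for 15.1% and 23.1% of all genes. Of 11 genes of spermatogonial differentiation and meiotic entry, *Ccnd2* rose (1.21) and *Stra8* fell, while *Kit* (0.38) and *Dazl* (0.12) stayed within the fold threshold. This list held 0 rises and 0 falls without SKO PreL replicate 3, and the call of *Ccnd2* held under 10 of 19 alternatives only.

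Of 15 genes listed for late spermatocytes, 11 passed the filter in SKO, where *Piwil1*, *Hspa2* and *Ldhc* rose (median 0.18), and all 15 passed in WT, where 12 rose (median 2.39). Rises took 27.3% of the 11 in SKO, beside 10.6% of all tested genes. Of all genes tested in WT, 18.8% rose. The change was more negative in SKO for 7 and more positive for 1, where 23.1% and 15.1% of all genes were. *Hspa2*, a heat shock protein of spermatocytes, stood at 1768, 1755 and 2786 in PreL and at 5245, 3765 and 4405 in LZ (log2 1.11, SE 0.20, adjusted p = 0.00317), against 2.39 in WT (difference -1.39, adjusted p = 0.0171). *Clgn*, a chaperone of the germ cell endoplasmic reticulum, was at -0.57 and rose by 2.14 in WT (difference -2.81, adjusted p = 1.88e-06). *Ybx2*, which binds stored mRNA, and *Aurkc*, the meiotic Aurora kinase, were at 0.55 and 0.44, with differences of -3.01 and -3.15. Among piRNA pathway genes, 3 of 18 tested rose in SKO (*Piwil1*, *Tdrd5* and *Pld6*, and 2 genes without SKO PreL replicate 3) and 9 of 19 in WT, with 9 differences negative and 0 positive. Rises in SKO took 16.7% of the 18, beside 10.6% of all tested genes. *Tdrd5*, a Tudor protein that overlaps *4930518J20Rik*, rose by 1.06, and *Pld6*, a mitochondrial nuclease, from 275, 301 and 297 to 714, 691 and 628 (log2 1.19, SE 0.18). Of 20 spermatid genes 5 passed the filter, with 0 called, while in WT all 20 passed and 6 rose. *Prm1* reads numbered 2840, 2242 and 1490 in WT PreL and 4121 and 2433 in WT LZ. In SKO they numbered 8, 6 and 4, then 1, 2 and 2. The part of such spermatid RNA in the differences from WT, here and below, was not tested.

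Of 85 ribosomal protein genes 12 rose and 0 fell (median 0.36), a share of 14.1% beside the 10.6% of all tested genes, and 14 rose without SKO PreL replicate 3. *Rps12*, for example, stood at 8336, 9138 and 8369 in PreL and at 28530, 21030 and 23333 in LZ (log2 1.48, SE 0.14; it overlaps *Snora33* and *Snord100*). The change was more positive in SKO than in WT for 46 of the 85 and more negative for 5, where 15.1% and 23.1% of all genes were. *Rpl7l1*, whose transcripts hold words of both families, rose most, by 1.87. Of 35 ribosome biogenesis genes *Gar1* (1.43), *Mybbp1a* (1.26) and *Utp6* (1.19, with a B2 word) rose and 0 fell, and 4 rose without SKO PreL replicate 3. Rises took 8.57% of this list, no larger a share than the 10.6% of all tested genes. Of 81 oxidative phosphorylation genes 4 rose and 5 fell (4.94% and 6.17%), no larger shares than the 10.6% and 6.93% of all tested genes, and without SKO PreL replicate 3, 6 rose and 3 fell. *Uqcrc1*, of complex III, stood at 9095, 8533 and 9994 in PreL and at 2014, 2891 and 2881 in LZ (log2 -1.84, SE 0.16, adjusted p = 7.58e-05) and rose by 1.28 in WT, whereas *Uqcrb* of the same complex rose from 13572, 13030 and 14664 to 32663, 34871 and 37563 (1.35, SE 0.12). *Sdhb* of complex II fell by 1.44 and *Ndufa10* of complex I by 1.36 on the log2 scale, and *Cox7c* of complex IV rose by 1.18. Of 39 proteasome genes 1 rose (*Psmb11*, with the B1 word) and 3 fell, 2.56% and 7.69% beside 10.6% and 6.93% of all tested genes. *Psmb8*, a subunit of the immunoproteasome, fell by 1.98. On values not rescaled 61 ribosomal protein genes and 27 of oxidative phosphorylation rose and 0 of either fell.

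Among stress and regulatory genes, counts were small, where 10.6% of all tested genes rose and 6.93% fell. Rises took 10.5% of the p53 list, 9.09% of the DNA methylation list and 5.56% of the BCL2 list, no more than that share. They took 25%, 18.75% and 16.7% of the immediate early, heat shock and ATF4 lists. Falls took 18.75% of the m6A list and 11.1% of the Polycomb list. Of 20 immediate early genes 5 rose (*Egr2* 2.17, *Jun* 1.53, *Klf4* 1.43, *Jund* 1.36 and *Zfp36* 1.26) with a median of 0.88, and without SKO PreL replicate 3, 4 rose and 1 fell with a median of 0.52. The call of *Zfp36* held under 9 of 19 alternatives only. Of 19 tested p53 target genes *Tnfrsf10b* (2.54, with a B2 word) and *Zmat3* (1.78, with the B1 word) rose. Of 18 ATF4 target genes *Cebpb* (1.90), *Atf5* (1.86) and *Ddit4* (1.28) rose, while *Ddit3* was at -0.76 against a rise of 2.59 in WT (difference -3.44, adjusted p = 4.5e-05). Of 16 heat shock genes *Hspa1b* (1.83), *Bag3* (1.81) and *Hspe1* (1.49) rose. Of 18 genes of the BCL2 family and caspases *Bik* rose by 1.47 in SKO. Of 16 m6A genes the writers *Mettl3* (-1.13) and *Rbm15* (-1.80) and the eraser *Alkbh5* (-1.46) fell. Of 18 genes in the Polycomb list, *Kdm6b* (-1.75) and *Cbx3* (-1.01) fell. *Kdm6b* encodes a demethylase that removes the Polycomb mark and is not itself a Polycomb subunit. Of 11 DNA methylation genes *Dnmt3b* rose (1.08). Without SKO PreL replicate 3, *Dnmt3b* lost its call and 1 gene of the Polycomb list fell. On values not rescaled, 5 genes of the m6A list and 7 of the Polycomb list rose and 0 fell.

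Of 15 oocyte genes 5 passed the filter and 3 rose, 60% of those tested beside 10.6% of all tested genes. *Zar1*, a maternal-effect gene, stood at 31.2, 49.8 and 48.4 in PreL and at 682, 1388 and 840 in LZ (log2 4.16, SE 0.33, adjusted p = 5.63e-05), and it fell in WT by 2.42 on the log2 scale (difference 6.34, adjusted p = 0.000289). *Ooep*, of the subcortical maternal complex, stood at 221, 204 and 203 and then at 3483, 1650 and 1587 (log2 3.26, SE 0.29), and *Nobox* rose by 1.28. *Figla* fell by 1.04 on the log2 scale, a call that was lost without SKO PreL replicate 3 and on values not rescaled. Zinc finger genes with a Zfp number rose in 46 and fell in 17 of 306 tested, shares of 15.03% and 5.56% beside 10.6% and 6.93% of all tested genes, and 45 and 14 without SKO PreL replicate 3. Of the 46, 15 held a word, beside 32.5% of all risen genes. *Zfp459*, with the B1 word and an overlap with *Gm48900*, rose most, from 142, 217 and 184 to 2022, 1210 and 1257 (log2 2.96, SE 0.26).

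Markers of other cells of the testis were followed over the same libraries. Of 12 macrophage and antigen-presentation genes *Cd14*, *Cd74*, *H2-Aa* and *H2-Ab1* fell and 0 rose (median -1.43), and 7 fell without SKO PreL replicate 3. The 4 falls were 33.3% of the list, beside 6.93% of all tested genes. *Csf1r* (0.33, overlapping *Hmgxb3*) and *C1qa* (-1.44) were not called, and 10 of the 12 had values below 0 and 2 above. The summed CPM of the list were 180, 186 and 77 in SKO PreL and 24, 66 and 51 in SKO LZ. *Cd74*, the invariant chain of MHC class II, had 225, 204 and 68 reads in PreL and 0, 26 and 3 in LZ. *H2-Ab1* stood at 1408, 1362 and 1380 and then at 244, 372 and 404 (log2 -2.02, SE 0.21). The falls of *Nkg7*, *Cd3g* and *Srgn* above went with these, and the part of such cells in them was not tested. Of 10 Sertoli cell genes 0 were called (median 1.003, and 0.28 with 1 fall without SKO PreL replicate 3), while all 10 rose in WT. The 2 WT LZ libraries were uneven there. *Clu* had 12504 reads in WT LZ replicate 2 and 2381 in replicate 3, and *Sox9* had 725 and 157. *Sox9* stood at 1439, 1344 and 181 in PreL and at 1867, 1780 and 1475 in LZ, and the low PreL value was that of replicate 3. Of 9 Leydig cell genes *Hsd17b3* rose, from 10, 33 and 4 reads to 16, 48 and 28, with a list median of 0.52. The median was -0.79 without SKO PreL replicate 3, and 1 gene then rose and 2 fell. Of myoid, endothelial, stromal and red blood cell genes 3, 3, 8 and 1 were tested and 0 called, with 1 stromal gene falling without SKO PreL replicate 3.

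The SKO transition was then set beside that of WT, in which 2585 of 13759 tested genes rose (18.8%) and 1073 fell (7.8%). In a limma fit over all 17 libraries, the change from PreL to LZ was more positive in SKO for 2040 of 13530 genes (15.1%) and more negative for 3122 (23.1%). Without WT LZ replicate 3 the latter count was 1952. Of the 1268 risen SKO genes also tested in WT, 393 fell in WT, which is 31.0% of them and 37.0% of the WT falls. The difference passed the test for all 393, which their choice by opposite calls in the same libraries made all but certain. A further 139 rose in both genotypes, and 736 were not called in WT. Of the 804 fallen SKO genes tested in WT, 102 rose in WT, 62 fell in both, and 640 were not called there. Of the genes that rose in WT and were tested in both, 1522 were not called in SKO. The median WT change was -0.53 for genes that rose in SKO and -0.03 for those that fell.

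B2 words were common among genes that rose in SKO and fell in WT. Among the 381 annotated genes that rose in SKO and fell in WT, 46.5% held a B2 word and 60.1% a word of either family, with a median of 1113 mean reads. Of those that rose in both genotypes 5.8% held a word, and of those that rose in SKO without a call in WT 24.97%. *Tnfrsf10b*, for instance, stood at 1357, 1378 and 1322 in SKO PreL and at 9743, 6504 and 7815 in SKO LZ (log2 2.54, SE 0.15) and changed by -1.43 in WT. The genes that fell in SKO and rose in WT had another make-up, with 14.7% holding a word. They included *Stub1*, *Uqcrc1*, *Kif20a*, *Ccdc155*, *Syngr4* and *Phkg2*. *Syngr4*, a synaptogyrin of the testis, stood at 536, 545 and 938 in SKO PreL and at 97.4, 199 and 243 in SKO LZ (log2 -1.89, SE 0.36), and rose by 3.12 in WT.

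**Figure D5:**
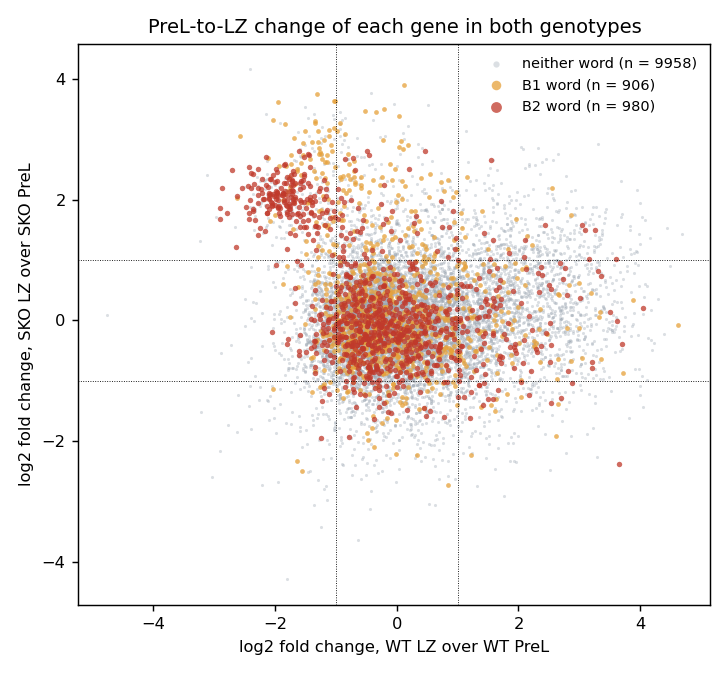
Log2 fold change from PreL to LZ in SKO (vertical) against that in WT (horizontal) for genes tested in both, coloured by the shared word of their transcripts, with dotted lines at a log2 fold change of 1 and -1. A part of the genes with a B2 word forms a cluster at the upper left, high in SKO and low in WT. Of genes with a B2 word, 177 rose in SKO and fell in WT, and 564 were called in neither.

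X-linked genes, which are silenced together later in male meiosis, were compared with autosomal genes. Of 520 tested X-linked genes 53 rose and 29 fell in SKO, with a median of 0.11, and of 11805 autosomal genes 1233 rose and 829 fell, with a median of -0.02. In WT 99 of 560 X-linked genes fell and 50 rose (median -0.48), against 956 and 2501 of 13018 autosomal genes (median 0.15). The change was more positive in SKO than in WT for 130 of 541 X-linked genes and more negative for 23, whereas for autosomal genes it was more positive for 1872 and more negative for 3061 of 12818. The autosomal median of SKO was within 0.1 of 0 on rescaled values, and on values not rescaled the X-linked and autosomal medians were 0.93 and 0.80.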

How the data were processed

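Per the study's methods, trimmed reads were mapped to mm10, uniquely mapped reads were counted per gene with HTSeq 0.11.2, and the authors calibrated the counts by ERCC spike-in and cell input. The submitters' processing notes also name TopHat2 2.1.1, Cufflinks 2.2.1, DESeq2 and the build mm9. The deposited signal is therefore read counts multiplied by a factor for each library, and dividing by that factor, taken as the smallest value above 0 in each library, gave whole reads within 0.01 for 100% of the values. No columns of authors' comparisons were used.

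Each library was rescaled by its median-of-ratios size factor (0.620 to 0.945 in SKO PreL, 1.28 to 1.42 in SKO LZ). This removes the difference of the median gene between the sorts, and only a part of the difference in total. Genes averaging 10 or more recovered reads across these 6 libraries were tested with limma 3.58.1 (R 4.3.3, trended variance) on log2(value + 10), and called at a Benjamini-Hochberg adjusted p under 0.05 with a log2 fold change beyond 1. A pseudocount of 10 understates the change of low genes. The WT change was fitted on its own 5 libraries, and the SKO minus WT difference on all 17. Depth limits low genes, since a count of 0 allows up to 3 reads by counting error alone. On simulated reads for SKO LZ against SKO PreL (12249 genes), 78 of 97 genes changed by 2 on the log2 scale and 92 of 98 changed by 3 were recovered, with 9 false calls.

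Symbols were matched to GENCODE M21 (GRCm38), 20857 directly and 1940 by older symbols of 23282. The counting setting for strand is not given in the sources used here, so reads of overlapping genes cannot be told apart, and overlaps are named beside the genes described most closely. Among the other genes named, exons also overlapped for *Itgb1bp3* (*Atcayos*), *Dnase2a* (*Mast1*), *Slc28a3* (*Gm3131*), *Prc1* (*Rccd1*), *Plk1* (*Gm44985*), *Hspe1* (*Hspd1*), *Mybbp1a* (*Spns2*), *Mettl3* (*Tox4*), *Atf5* (*Il4i1*, *Nup62*), *Cebpb* (*Tmem189*), *Ddit3* (*Mars*), *Psmb8* (*Gm20496*), *Uqcrb* (*Gm10767*), *Lin28a* (*Gm13061*), *Ccnd2* (*9330179D12Rik*), *Kdm6b* (*Kdm6bos*), *Jun* (*Junos*), *Jund* (*Gm11175*), *Zfp36* (*Gm44710*), *Phkg2* (*Ccdc189*), *Prr5l* (*Gm13905*) and *Ptchd1* (*Gm15156*). Words and windows were read from that annotation's transcripts.

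Named are *Nat10*, the 10 largest rises and falls among called genes averaging 100 reads or more without overlap, key genes of each list with its largest rise and fall, and the 5 largest differences from WT in each direction, and some items chosen this way are not reported here. The genes and lists were chosen with earlier results of these data known, and other called list members, the abundant risen genes and those with a printed sequence were named after their values were seen. Alternatives covered scaling, tool (edgeR 4.0.16, DESeq2 1.42.0), pseudocount, filter, GC content and length, depth, pairing and each left-out library.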

Additional observations from a re-analysis of the deposited data

Results flagged for a closer look

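The change from PreL to LZ differed between SKO and WT for 2040 genes in the positive and 3122 in the negative direction, by the limma test of the difference itself. Among called SKO genes averaging 100 reads or more, the 5 largest positive differences were those of *Ptk6* (5.42), *F630042J09Rik* (5.38), *Prr5l* (5.09), *Ptchd1* (5.06) and *Gje1* (4.97), on the log2 scale. Large negative differences were those of *Phkg2* (-5.40), *Rnf32* (-5.16), *Syngr4* (-5.08) and *Stub1* (-4.69). These 4 genes fell in SKO and rose in WT, *Rnf32* by 3.99, *Phkg2* by 3.28, *Syngr4* by 3.12 and *Stub1* by 1.76. *Phkg2* had few reads in SKO LZ, and its call and that of *Rnf32* were lost on values not rescaled.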

How the results depend on the processing

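On ERCC-calibrated values not rescaled, 4409 genes rose and 152 fell in SKO, 10992 rose and 15 fell in WT, and the difference was positive for 749 and negative for 6575, since the totals of the libraries then enter the change. The X-linked and autosomal medians of SKO moved to 0.93 and 0.80, and with TMM scaling to 0.042 and -0.084. The autosomal median was -0.075 with no filter on low values and -0.058 with a filter at 50 mean reads. With no fold threshold 2224 genes rose and 2382 fell. The ratio of totals was 1.91 without the 100 genes with the highest mean and 1.93 without genes with a shared word. TMM gave 1201 rises and 1013 falls, edgeR 1295 and 848, and DESeq2 1355 and 820. Leaving out each library gave 1026 to 1469 rises and 682 to 981 falls in SKO, 1806 to 2001 positive and 1952 to 3146 negative differences, and a *Nat10* change from -0.41 to -0.16. The naming rule given above picked 69 called genes. Of these, 57 kept their call on values not rescaled, and 0 reversed under any alternative run. Genes named outside that rule, after their values were seen, are not in this count.

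The labels give PreL and LZ libraries shared replicate numbers. Deviations of same-numbered libraries from their group means correlated weakly (r of -0.106, 0.157 and 0.061). Those of differently numbered libraries ran from -0.178 to 0.125. With 3 libraries in each group, these values cannot decide whether the numbers mark pairs. With the replicate block 1346 genes rose and 847 fell, and the calls of all 69 genes picked by the naming rule held. With GC and length trends removed as well, 1343 rose and 789 fell.

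Reads in SKO LZ were fewer than in SKO PreL, and thinning PreL reads gave 1281 rises and 784 falls.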
